A study of Mus musculus with 8 samples.

Results

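Antiviral interferon-stimulated genes were described in mouse livers with constitutively active IKK2, a kinase of the NF-kB pathway. They are 38 effector genes, chosen by function, and each was read through the probe set that carries its symbol and no other. Where a gene had several such probe sets, the one with the highest mean over all 8 arrays was taken. In this way 35 of the 38 were measured, out of 19938 genes in all. Ifi47 and Ifi204 lie on probe sets shared with another gene, and the annotation used lists none for Ifi44, so these 3 carry no value here.

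The tested livers came from 4 transgenic mice, whose constitutively active IKK2 is driven by the LAP promoter (called IKK2ca livers below), and the reference livers from 4 wild type mice. Both groups were 4 weeks old and shared a stock mixed from C57BL/6 and NMRI, crossed back to C57BL/6 at least 4 times. The LAP promoter is active in hepatocytes, so the transgene is aimed at these cells, whereas the arrays read RNA of the whole organ. Each liver has its own Affymetrix array, and all levels below are log2 expression values, on which a step of 1 is a 2-fold change. Arrays within a group are labelled as biological replicates, so that their spread covers the differences between animals.

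Interferons are secreted when a cell senses foreign nucleic acid. They bind receptors whose JAK kinases activate transcription factors, among them STAT2 and IRF9, which switch on genes whose products bind, cut, edit or trap viral RNA and virus particles. IKK2 acts on another branch, in which it releases NF-kB, but NF-kB takes part in the induction of interferon itself and of Irf1. In liver these effectors are made by hepatocytes as well as by macrophages and other immune cells.

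The array medians lay between 4.88 and 5.08. Hepatocyte markers marked the tissue: the mean of 8 measured markers, among them Alb and Ttr, was 12.6 to 12.8 in IKK2ca livers and 12.7 to 12.8 in controls. Ikbkb, the gene of IKK2, read 8.995, 9.09, 8.38 and 8.38 in IKK2ca replicates 1 to 4, against 7.79, 7.44, 7.85 and 7.77 in control replicates 1 to 4, which is higher in every transgenic liver. No source used here says whether its probe set reads the transgene. Depth has no meaning for arrays, and precision is set by having 4 per group.

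Expression of the antiviral genes leaned upward in IKK2ca livers, and few of the differences passed the adjusted threshold. In a limma fit over the whole table, with Benjamini-Hochberg adjustment over all 21789 probe sets of 1 gene, 5 of the 35 measured genes rose at an adjusted p under 0.05 (14.3%, against 4.67% of all genes; 6.34% of all genes were called in either direction). They were Ifit2, Trim30a, Parp14, Samd9l and Trim21. None fell (0 of 35 by limma, also at an unadjusted p under 0.05, by which 18.3% of all genes were lower; 1.67% of all genes fell), and 30 did not pass. The log2 fold change was positive for 34 of the 35 (38.4% of all genes), the exception being Mx2 at -0.02, which turned to 0.07 after quantile normalization and to 0.06 after median centring. The median log2 fold change was 0.62, against -0.07 over all genes, and 6 members reached 1 or more (2.87% of all genes). It was 0.32 with array weights and 0.38 without IKK2ca replicate 2.

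The 5 calls stood close to the threshold, at adjusted p from 0.0322 to 0.0454, and the count depends on which arrays are kept. Leaving out IKK2ca replicate 1, or any 1 of the 4 controls, left 0 members called, with 0.963% to 1.34% of all genes called higher. Without IKK2ca replicates 2, 3 and 4 in turn, 8, 9 and 13 members were called, beside 4.9%, 6.82% and 8.21% of all genes. The count of all genes called higher moved in the same direction each time, though little without IKK2ca replicate 2 (4.67% to 4.9%). Whether any of the swing is particular to the antiviral genes was not tested. At an unadjusted p under 0.05, 23 of 35 were higher (65.7%, against 15.3% of all genes). The 2 groups did not overlap, with every IKK2ca liver above every control, for 14 of 35 (40.0%, against 11.2% of all genes).

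**Figure D1:**
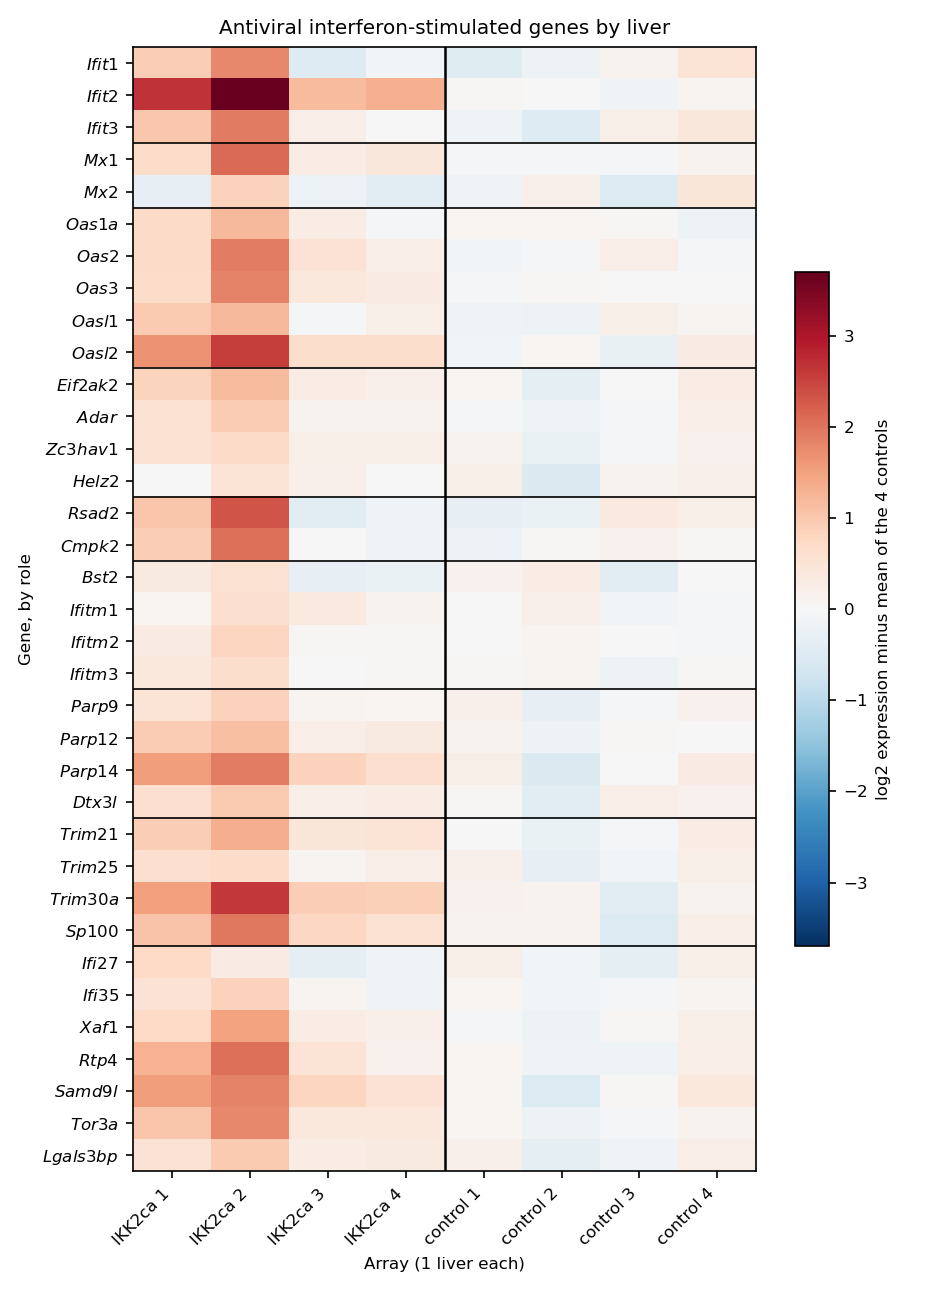
Heat map of the 35 measured genes (rows, grouped by role with lines between groups) in the 8 livers (columns, IKK2ca left of control). Colour gives log2 expression minus the mean of the 4 controls. The column of IKK2ca replicate 2 is the reddest, with replicate 1 next, while replicates 3 and 4 are near the controls in most rows.

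**Figure D2:**
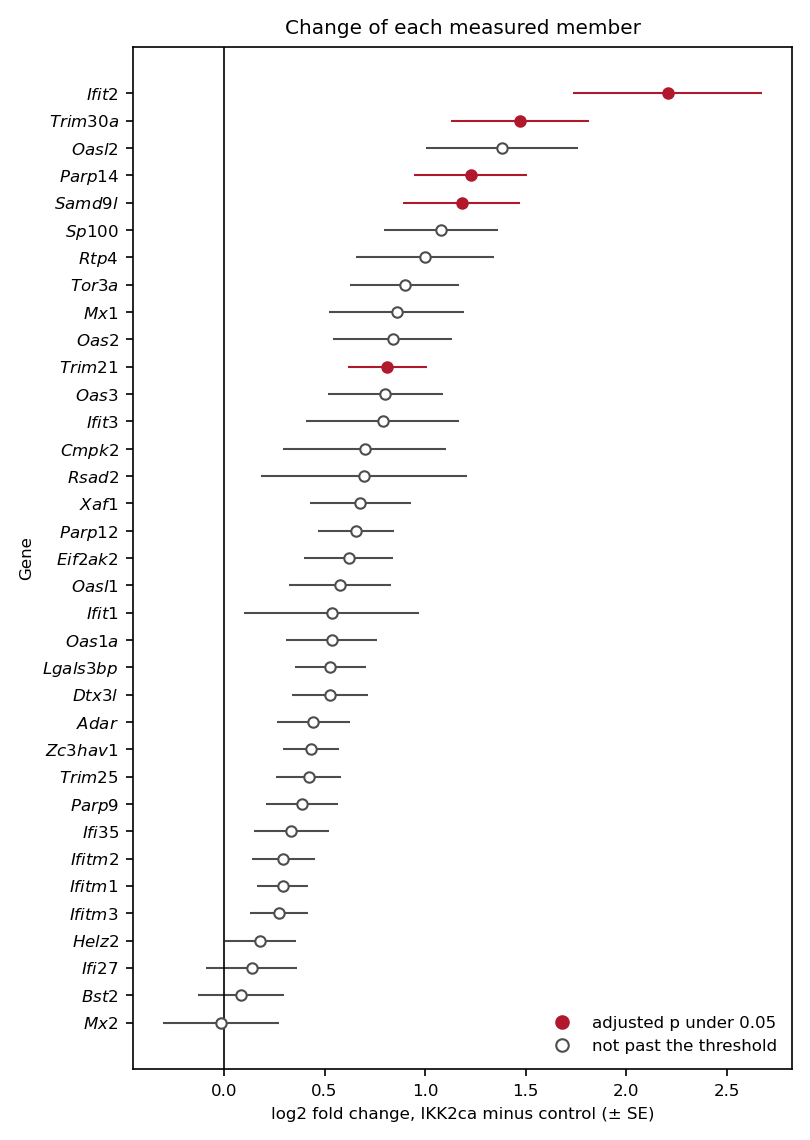
Log2 fold change, IKK2ca minus control, of each measured gene with limma's SE (bars). Filled red points mark the 5 genes at an adjusted p under 0.05; Mx2 is the only point left of 0.

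Of the 3 IFIT genes measured, whose proteins bind viral RNA and block its translation, 1 rose and 2 did not pass. Ifit2 read 8.99, 9.99, 7.50 and 7.64 in IKK2ca replicates 1 to 4, against 6.38, 6.32, 6.19 and 6.41 in control replicates 1 to 4. All 4 IKK2ca livers lay above all controls, though replicates 1 and 2 were well above 3 and 4. It had the largest change of the 35 genes, 2.21 on the log2 scale (4.62-fold, SE 0.47, limma adjusted p = 0.0322). The genes close to it on the chromosome did not pass. Ifit1, which binds the unmethylated cap of viral RNA, read 8.15, 9.02, 6.77 and 7.15 in IKK2ca livers, against 6.78, 7.05, 7.36 and 7.76 in controls. Only IKK2ca replicates 1 and 2 exceeded the controls, and replicate 3 was the lowest of all 8 livers. The log2 fold change was 0.54 (SE 0.44, adjusted p = 0.388). Ifit3, a partner protein of Ifit1, read 7.47, 8.42, 6.72 and 6.49 in IKK2ca livers, against 6.33, 6.01, 6.70 and 6.91 in controls, with the same order of livers at the top (log2 fold change 0.79, adjusted p = 0.173). The SD over controls was 0.42 for Ifit1 and 0.40 for Ifit3, against 0.10 for Ifit2.

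The promoter windows of these neighbours differ in exact matches to the core motif of the element that interferon factors bind. Their sequences are therefore shown, with those of 3 other members that hold a match. Each is the RefSeq sequence (build GRCm38.p6) of the 250 bases before the annotated start, read 5′ to 3′ along the gene, and capitals mark matches to TTTC, any 2 bases and TTTC, the core of the interferon-stimulated response element, on either strand.
Ifit2 (chr19:34550444-34550693, plus strand): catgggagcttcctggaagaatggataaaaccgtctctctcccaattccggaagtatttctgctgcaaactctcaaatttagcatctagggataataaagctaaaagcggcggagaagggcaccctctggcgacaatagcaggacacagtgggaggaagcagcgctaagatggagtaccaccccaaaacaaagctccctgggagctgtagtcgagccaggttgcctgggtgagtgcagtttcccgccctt
Ifit1 (chr19:34640639-34640888, plus strand): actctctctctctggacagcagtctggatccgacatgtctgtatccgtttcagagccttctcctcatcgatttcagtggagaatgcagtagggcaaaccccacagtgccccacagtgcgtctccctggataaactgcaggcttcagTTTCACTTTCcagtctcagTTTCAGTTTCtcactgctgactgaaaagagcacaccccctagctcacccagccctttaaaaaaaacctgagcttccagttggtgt
Ifit3 (chr19:34583279-34583528, plus strand): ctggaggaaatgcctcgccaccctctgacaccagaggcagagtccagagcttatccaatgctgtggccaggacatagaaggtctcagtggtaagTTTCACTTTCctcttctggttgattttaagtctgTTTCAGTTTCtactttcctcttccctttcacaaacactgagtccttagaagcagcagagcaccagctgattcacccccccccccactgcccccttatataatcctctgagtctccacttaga
Rsad2 (chr12:26456453-26456702, minus strand): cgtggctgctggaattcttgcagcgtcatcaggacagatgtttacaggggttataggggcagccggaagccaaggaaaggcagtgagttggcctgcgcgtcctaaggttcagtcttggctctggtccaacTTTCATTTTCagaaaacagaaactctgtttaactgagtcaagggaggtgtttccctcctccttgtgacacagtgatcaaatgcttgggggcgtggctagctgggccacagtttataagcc
Oas1a (chr5:120907526-120907775, minus strand): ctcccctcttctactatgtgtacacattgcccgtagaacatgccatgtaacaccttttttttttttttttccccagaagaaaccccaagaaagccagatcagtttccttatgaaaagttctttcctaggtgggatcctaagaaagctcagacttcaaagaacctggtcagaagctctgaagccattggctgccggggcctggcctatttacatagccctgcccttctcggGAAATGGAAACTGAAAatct
Trim30a (chr7:104465194-104465443, minus strand): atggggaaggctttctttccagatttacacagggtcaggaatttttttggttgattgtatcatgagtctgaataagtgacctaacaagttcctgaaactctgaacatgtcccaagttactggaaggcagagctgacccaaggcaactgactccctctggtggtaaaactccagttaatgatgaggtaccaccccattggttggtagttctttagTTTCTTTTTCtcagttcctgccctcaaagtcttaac
Ifit1 held this motif 104 and 85 bases before its start, counted to the first base of each match, and Ifit3 held it 156 and 122 bases before. Ifit2, the one of these 3 that rose, held none in this window, nor in the window of a second annotated start. An element outside these windows, or one that departs from the exact pattern, would not be found. Rsad2 had a match 120 bases before its start and Trim30a 36 bases before. In Oas1a a pair of overlapping matches began 20 and 14 bases before the start, on the opposite strand.

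Over windows from 250 bases before to 50 bases after each start, this motif was present, on either strand, in 11 of the 27 measured members that the promoter table holds (40.7%), against 3.99% of 27025 genes. The list was drawn up from genes known to answer interferon, and the share is a description of that choice. The 11 members had a median log2 fold change of 0.62 and the other members of that table had 0.55, with no test. Of 4 called members in the table, Trim21 and Trim30a held the motif, in Trim21 after the start, and Ifit2 and Samd9l did not. TTCNNNGAA, a motif found in genes that answer interferon gamma, was in 7 of 27 (25.9%, against 9.55% of genes), and overlapped a match of the first motif in Bst2 and Ifitm3. GGG, any 2 bases and TTTCC, a form of the NF-kB site searched on both strands, was in 0 of 27, against 1.89% of genes. Parp14, Parp9, Oas2, Rtp4, Tor3a, Mx1, Mx2 and Ifi27 have no entry in the table used.

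The Mx genes encode dynamin-like GTPases that block incoming viral particles, and many laboratory strains carry a disrupted Mx1. Mx1 read 4.80, 6.22, 4.40 and 4.54 in IKK2ca replicates 1 to 4, against 4.10, 4.08, 4.10 and 4.25 in the controls. Every IKK2ca liver was above every control, but replicate 2 alone carried most of the difference and the log2 fold change of 0.86 did not pass (SE 0.34, adjusted p = 0.115). Without IKK2ca replicate 2 the log2 fold change of Mx1 was 0.45, and it then passed (limma adjusted p = 0.0414). All 4 control readings and those of 3 IKK2ca livers lie under every array median, so its size is uncertain. Mx2 read 4.22, 5.37, 4.32 and 4.13 in IKK2ca livers, against 4.39, 4.71, 4.02 and 4.98 in controls, with only IKK2ca replicate 2 outside the control range. All its readings but 5.37 and 4.98 lie under every array median, so its sign and size are uncertain.

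The OAS enzymes make the short oligoadenylates that switch on RNase L, and Oasl1 and Oasl2 are related proteins with a ubiquitin-like tail. None of the 5 passed limma's adjusted threshold, while all 5 were higher at an unadjusted p under 0.05. Oasl2 read 8.35, 9.25, 7.34 and 7.33 in IKK2ca livers, against 6.57, 6.76, 6.41 and 6.997 in controls, and the groups did not overlap. The 1.38 log2 difference missed the threshold (2.61-fold, SE 0.38, adjusted p = 0.0581), which it met once the dimmest 30% of probe sets were left out (adjusted p = 0.0481). In 8 of 10 other settings that kept all arrays it still missed, with arrays centred at an adjusted p of 0.0731. It also missed in 5 of 8 fits with 1 array left out. Oas3 read 5.65, 6.80, 5.35 and 5.28 in IKK2ca livers, against 4.92, 5.02, 4.99 and 4.94 in controls, again without overlap (log2 fold change 0.80, adjusted p = 0.0950). Its SD was 0.70 over IKK2ca livers against 0.05 over controls. Oas2, Oasl1 and Oas1a had log2 fold changes of 0.84, 0.58 and 0.54 and groups that overlapped. In each of the 5 genes IKK2ca replicate 2 was the highest and replicate 1 the second.

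Rsad2 encodes viperin, which makes a chain-terminating nucleotide, and Cmpk2, its neighbour on the chromosome, encodes a kinase that supplies the nucleotide viperin works on. In both genes the IKK2ca livers lay far apart. Rsad2 read 8.90, 10.19, 7.44 and 7.72 in IKK2ca livers, against 7.56, 7.63, 8.22 and 8.07 in controls. Replicates 1 and 2 were above all controls, whereas replicate 3 was below all of them and replicate 4 within their range. The log2 fold change was 0.70 (SE 0.51, adjusted p = 0.341), and the SD over IKK2ca livers, 1.25, was the largest of the 35 genes. Cmpk2 read 7.24, 8.35, 6.32 and 6.18 in IKK2ca livers, against 6.09, 6.36, 6.48 and 6.37 in controls, and its log2 fold change was also 0.70 (SE 0.40, adjusted p = 0.238).

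**Figure D3:**
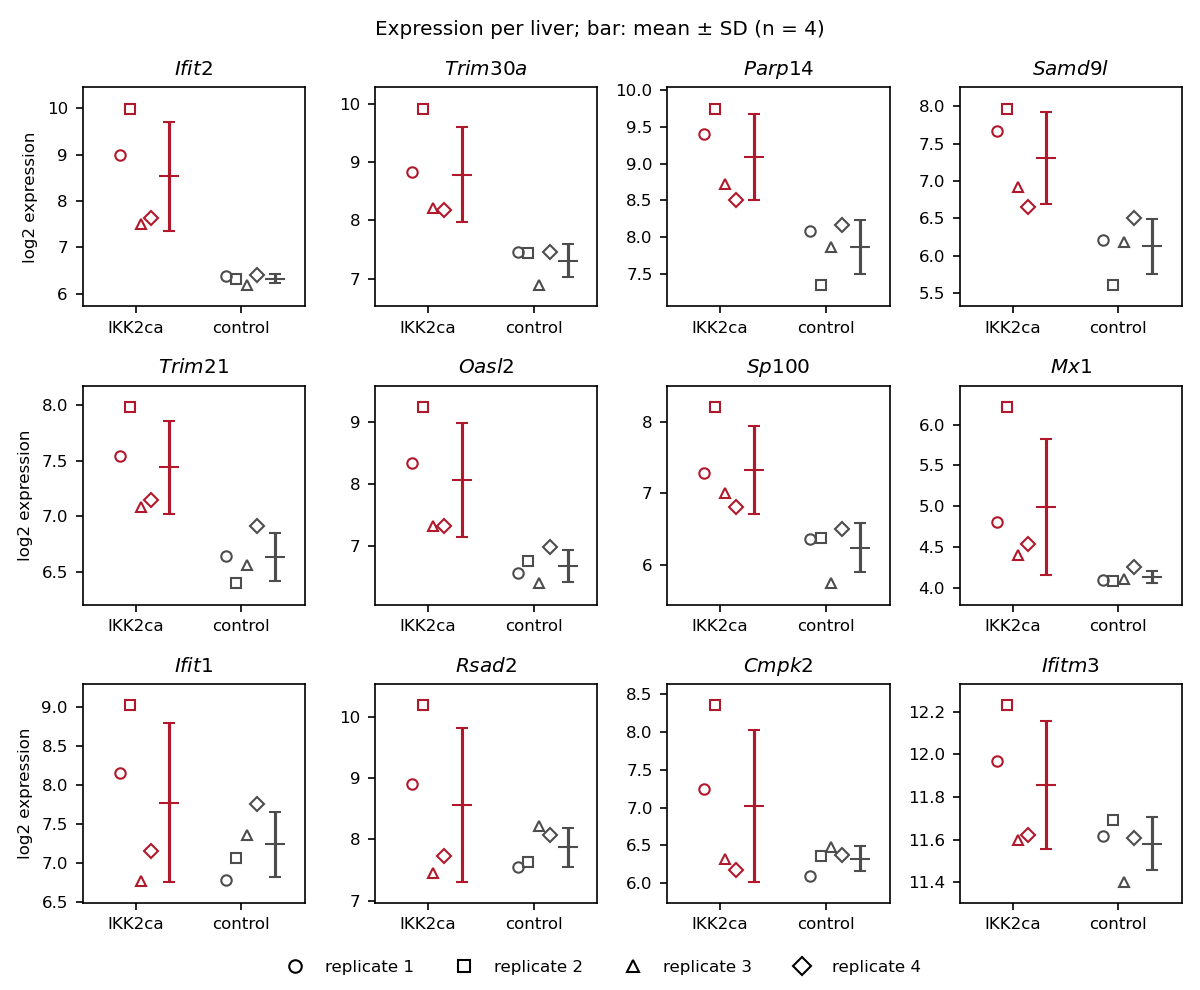
Log2 expression of 12 members in each liver, IKK2ca left of control, with a symbol for each replicate number and the mean ± SD of 4 livers beside them; each panel has its own axis. Ifit2, Trim30a, Parp14, Samd9l, Trim21, Oasl2, Sp100 and Mx1 have every IKK2ca liver above every control, while Ifit1, Rsad2, Cmpk2 and Ifitm3 overlap.

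Genes of 4 proteins that sense, edit or destroy RNA gave no call, at log2 fold changes of 0.18 to 0.62. By limma, 3 of the 4 were higher at an unadjusted p under 0.05 (15.3% of all genes). Zc3hav1, the zinc finger protein ZAP that recruits the RNA decay machinery, read 8.21, 8.35, 7.87 and 7.86 in IKK2ca livers, against 7.78, 7.40, 7.59 and 7.81 in controls, just clear of overlap. Its log2 fold change was 0.43 (SE 0.14, adjusted p = 0.0802). Eif2ak2, the kinase PKR that halts translation on double-stranded RNA, stood at 0.62 (adjusted p = 0.0976). The adenosine deaminase Adar, which edits double-stranded RNA, stood at 0.44 (adjusted p = 0.126). Helz2, a helicase and nuclear receptor coactivator, stood at 0.18 (adjusted p = 0.472). Helz2 was the only one of the 35 genes with a larger SD over controls (0.35) than over IKK2ca livers (0.23).

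Proteins that act at membranes hardly differed. The interferon-induced transmembrane proteins stop virus from fusing with endosomes, and Bst2, or tetherin, holds budding particles on the cell surface. Ifitm3 read 11.97, 12.23, 11.60 and 11.62 in IKK2ca livers, against 11.62, 11.69, 11.40 and 11.61 in controls. IKK2ca replicates 1 and 2 were above the controls and the other 2 within them. Log2 fold changes were 0.29, 0.30 and 0.28 for Ifitm1, Ifitm2 and Ifitm3 (adjusted p = 0.140, 0.203 and 0.203). A second probe set of Ifitm1 gave 0.34, and 2 further ones of Ifitm2 gave 0.39 and 0.34, all with the same sign. The Ifitm genes are close paralogs, so a probe set may read more than its own gene. Bst2 stood at 0.08 (adjusted p = 0.793), and its groups overlapped.

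The PARP proteins attach ADP-ribose, and Dtx3l is a ubiquitin ligase that works as a pair with Parp9. Parp14, Dtx3l and Parp9 lie side by side in the genome, and 1 of the 3 rose. Parp14 read 9.40, 9.75, 8.72 and 8.50 in IKK2ca livers, against 8.09, 7.34, 7.86 and 8.17 in controls, with no overlap and control replicate 2 the lowest of all. The difference was 1.23 on the log2 scale (2.34-fold, SE 0.28, adjusted p = 0.0385). Dtx3l stood at 0.53 (adjusted p = 0.0981), its lowest IKK2ca liver at 8.224 and its highest control at 8.222. Parp9 stood at 0.39 (adjusted p = 0.162), and its groups overlapped. Parp12, which lies elsewhere and binds viral RNA, read 9.28, 9.46, 8.59 and 8.68 in IKK2ca livers, against 8.47, 8.15, 8.39 and 8.37 in controls. It was clear of overlap, with a log2 fold change of 0.66 (adjusted p = 0.0635).

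TRIM ubiquitin ligases and nuclear body proteins held 2 of the 5 calls, in 4 measured genes. Trim30a, a TRIM protein that dampens NF-kB signalling, read 8.82, 9.92, 8.22 and 8.18 in IKK2ca livers, against 7.46, 7.44, 6.89 and 7.45 in controls. Every IKK2ca liver was above every control, and the difference was 1.47 on the log2 scale (2.78-fold, SE 0.34, adjusted p = 0.0403). Trim21, the cytosolic antibody receptor that sends antibody-coated virus to the proteasome, read 7.54, 7.99, 7.09 and 7.15 in IKK2ca livers, against 6.64, 6.39, 6.56 and 6.91 in controls. It had the smallest change of the 5 called genes, 0.81 (1.76-fold, SE 0.20, adjusted p = 0.0437). Sp100, a component of PML nuclear bodies, read 7.29, 8.21, 7.003 and 6.81 in IKK2ca livers, against 6.37, 6.37, 5.75 and 6.50 in controls, without overlap. Its 1.08 just missed (SE 0.28, adjusted p = 0.0536). Trim25, the ligase that modifies the sensor RIG-I, stood at 0.42 (adjusted p = 0.112).

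Of the 7 other interferon-induced genes measured, 1 rose. Samd9l, which restricts translation of viral RNA, read 7.67, 7.97, 6.92 and 6.66 in IKK2ca livers, against 6.21, 5.61, 6.18 and 6.50 in controls. IKK2ca replicate 4 was the closest to the controls, and the log2 difference was 1.18 (2.27-fold, SE 0.29, adjusted p = 0.0454). Rtp4, a chaperone of receptors that was later found to act against viral replication, read 8.67, 9.42, 7.89 and 7.54 in IKK2ca livers, against 7.44, 7.24, 7.21 and 7.62 in controls. Replicate 4 fell within the controls, and the change of 1.00 did not pass (SE 0.34, adjusted p = 0.0907). Tor3a, a torsin ATPase of the endoplasmic reticulum, read 6.78, 7.53, 6.15 and 6.16 in IKK2ca livers, against 5.84, 5.58, 5.71 and 5.90 in controls, without overlap (log2 fold change 0.90, SE 0.27, adjusted p = 0.0690). Xaf1, a factor of cell death, stood at 0.68, and Lgals3bp, a secreted galectin-binding glycoprotein, at 0.53. Ifi35 and the mitochondrial protein Ifi27 stood at 0.33 and 0.14. Ifi27 was the only one of the 35 with IKK2ca replicate 1, at 9.09, above replicate 2, at 8.66.

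The spread within the IKK2ca group followed one order in nearly all of these genes. IKK2ca replicate 2 was the highest of the 4 in 34 of 35 genes (31.0% of all genes), and replicate 1 was second in 31. In 32 of 35, replicates 1 and 2 both exceeded replicates 3 and 4. Replicate 2 lay above every control in all 35 genes and replicate 1 in 32, the exceptions being Mx2, Helz2 and Ifitm1. Replicates 3 and 4 did so in 19 and 15, and both together in 14. Over all genes the shares above every control were 27.3%, 30.3%, 20.7% and 18.2% in IKK2ca replicates 1 to 4.

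The mean over the 35 genes was 7.99, 8.6, 7.43 and 7.39 in IKK2ca replicates 1 to 4, against 7.19, 7.04, 7.12 and 7.34 in control replicates 1 to 4. Relative to the control mean the IKK2ca livers stood at 0.82, 1.43, 0.26 and 0.22, and control replicate 4 at 0.17. The SD was larger over IKK2ca livers than over controls in 34 of 35 genes (59.4% of all genes), with a median ratio of 2.43, against 1.18 over all genes. The median SE of the fold change was 0.25 for the members and 0.11 for all genes.

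This order of livers was also found outside the antiviral genes. Among the other 927 genes called higher, IKK2ca replicate 2 was the highest in 84.8%. Over 14 targets of NF-kB, such as Tnfaip3, Icam1 and Saa3, the mean relative to the controls was 2.90, 3.32, 2.04 and 2.17 in IKK2ca replicates 1 to 4. In that list 12 of 14 rose (4.67% of all genes) and the groups of 13 did not overlap (11.2% of all genes). In all 14 the SD was larger over IKK2ca livers than over controls, with a median ratio of 4.72. Ikbkb, given above, had a like order, with replicates 1 and 2 the highest. In Saa3, an acute-phase protein with the largest of these changes, the mean was 12.75 ± 0.55 in IKK2ca livers and 6.27 ± 0.22 in controls (SD, n = 4 each). Whether the antiviral genes and the NF-kB targets differ in this respect was not tested.

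Markers of several immune cell types were also higher in IKK2ca livers, and in bulk liver more cells of a type and more RNA per cell cannot be told apart. IKK2ca replicate 2 had the highest mean of the 4 for macrophage, monocyte, T and NK cell, plasmacytoid and neutrophil markers, while the order of the other 3 livers varied between these lists. Of 13 Kupffer cell and macrophage markers, 10 rose (4.67% of all genes), with Adgre1, Cd68, C1qb and Csf1r at log2 fold changes of 1.74, 1.71, 1.66 and 1.64. The mean of the list was 8.72 to 10.1 in IKK2ca livers and 7.69 to 8.04 in controls, with IKK2ca replicates 1 to 4 at 1.30, 2.28, 1.28 and 0.91 relative to the controls. All 6 monocyte markers measured rose, among them Ccr2 by 3.72 and Lyz2 by 2.84, at a list mean of 6.62 to 8.12 in IKK2ca livers and 4.73 to 4.94 in controls. Of 12 T and NK cell markers 3 rose (Cd3g, Nkg7 and Cd8b1), at a list mean of 4.88 to 5.72 in IKK2ca livers and 4.48 to 4.57 in controls. Among 7 markers of plasmacytoid dendritic cells, which are strong producers of type I interferon, 1 rose (Tcf4, at 0.46), and the list mean was 5.41 to 5.79 in IKK2ca livers and 5.13 to 5.41 in controls. On this log scale no marker reads 0, but Ccr9, Ncr1 and Klrb1c lay under every array median in all 8 livers. So did 5 of 9 neutrophil markers (S100a9, Ly6g, Ngp, Ltf and Elane) and 3 of 5 B cell markers (Ms4a1, Cd79a and Blk). Of 9 neutrophil markers limma called 0 (1 at an unadjusted p under 0.05), yet their mean was 0.48 above the controls in IKK2ca replicate 2 and -0.14 to 0.04 in the other IKK2ca livers. Neither B cell, sinusoidal endothelial nor hepatocyte markers gave a call (0 of 5, 0 of 7 and 0 of 8 by limma; 0, 2 and 1 at an unadjusted p under 0.05). Median SD ratios, IKK2ca over control, were 3.82 for monocyte, 3.17 for T and NK cell and 2.98 for macrophage markers. They were 2.38 for neutrophil, 1.74 for hepatocyte, 1.13 for plasmacytoid, 0.81 for sinusoidal endothelial and 0.47 for B cell markers. The part of these cells in the antiviral values was not tested.

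**Figure D4:**
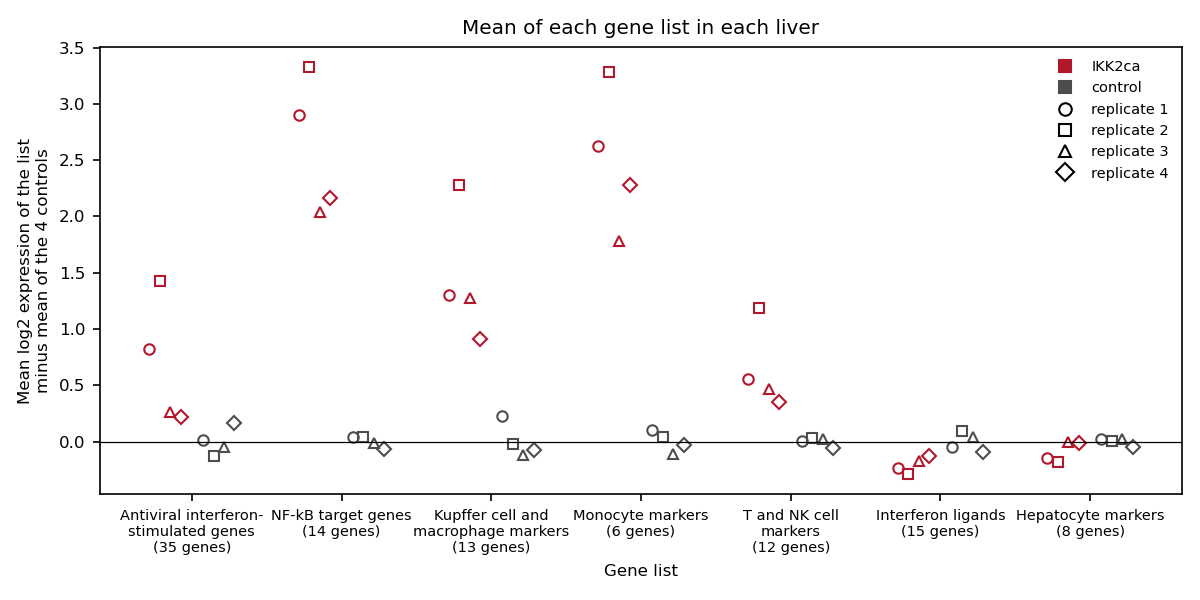
Mean log2 expression of 7 gene lists in each liver, minus the mean of the 4 controls, with IKK2ca (red) left of control (grey) and a symbol for each replicate. For the antiviral genes IKK2ca replicates 3 and 4 stand at 0.26 and 0.22, next to control replicate 4 at 0.17, whereas for NF-kB targets they stand at 2.04 and 2.17.

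The genes that carry the interferon signal were read through 5 further lists, with 50 genes measured. Together 13 rose and 1 fell. Over all genes 4.67% rose and 1.67% fell, and these shares stand beside each list below. Transcripts of interferons themselves were not higher: of 15 ligands, 0 rose by limma (also 0 at an unadjusted p under 0.05), and 12 lay under every array median in all livers. All 15 had a negative log2 fold change, as had 12284 of 19938 genes. By limma, 5 were lower at an unadjusted p under 0.05, against 18.3% of all genes. Ifnb1 read 3.72, 3.42, 3.47 and 3.66 in IKK2ca livers, against 3.61, 3.75, 3.72 and 3.54 in controls. Ifng read 4.15, 3.88, 4.18 and 3.96 in IKK2ca livers, against 4.15, 4.11, 4.38 and 4.15 in controls. In both genes the groups overlapped. Ifnab, an interferon alpha gene, read 3.67 to 3.76 in IKK2ca livers and 3.93 to 4.24 in controls, with a log2 fold change of -0.41 (adjusted p = 0.0314). These readings are among the 12, so the size is uncertain, and the call was lost with arrays centred (adjusted p = 0.0562). Interferon alpha genes are close copies, so a probe set may read several. Over 7624 dim genes, with a mean under the lowest array median, there was a median log2 fold change of -0.12. The ligands' median of -0.19 was -0.14 with quantile normalization and -0.11 with arrays centred.

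Among receptors and their kinases 6 of 9 rose. Ifngr1 and Ifngr2, the chains of the interferon gamma receptor, changed the most with Il10rb and Jak2. Ifngr1 read 9.73, 10.32, 9.29 and 9.15 in IKK2ca livers, against 8.01, 8.04, 7.92 and 8.26 in controls, so that all 4 IKK2ca livers were well clear of the controls. Its log2 fold change was 1.56 (SE 0.23, adjusted p = 0.00809). Ifngr2 rose by 1.27 (adjusted p = 0.00759). Il10rb, a chain shared by the receptors of interferon lambda and interleukin 10, rose by 1.42, and Jak2, the kinase bound to Ifngr2, by 1.38. The chains of the type I receptor rose less, Ifnar2 by 0.65 and Ifnar1 by 0.48 (adjusted p = 0.0495 and 0.0443). Jak1, Tyk2 and Ifnlr1 did not pass, at 0.58, 0.30 and -0.21, with Jak1 at an adjusted p of 0.0506.

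Of 8 transcription factors measured 2 rose. Irf1, a target of NF-kB that interferon also induces, read 9.09, 9.58, 8.51 and 8.47 in IKK2ca livers, against 7.26, 6.96, 6.43 and 7.28 in controls. Its rise of 1.93 (3.81-fold, SE 0.27, adjusted p = 0.00719) put every IKK2ca liver above every control on this probe set, the brighter of 2. The other one read 4.72 to 5.01 in IKK2ca livers and 4.73 to 5.32 in controls, near the array medians, at -0.20 (adjusted p = 0.301). The mean of both gave 0.86 (adjusted p = 0.0120). Irf8, a factor of the myeloid lineage, rose by 1.01 (adjusted p = 0.00894). The 2 partners of the type I response gave values near the controls: Irf9 read 7.56, 7.95, 7.45 and 7.39 in IKK2ca livers, against 7.57, 7.59, 7.67 and 7.76 in controls (log2 fold change -0.06, adjusted p = 0.748), and Stat2 stood at 0.29 (adjusted p = 0.187). Irf7, the amplifier of interferon alpha production, read 8.12, 9.04, 7.45 and 7.29 in IKK2ca livers, against 7.16, 7.01, 6.77 and 7.10 in controls (0.97, adjusted p = 0.0873).

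Of 7 feedback inhibitors 1 rose, the phosphatase Ptpn6, by 0.84 (adjusted p = 0.0403). Usp18, which strips Isg15 from proteins and blocks the type I receptor, read 7.99, 9.20, 7.52 and 7.49 in IKK2ca livers, against 7.50, 7.58, 7.52 and 7.72 in controls. As with Rsad2, only IKK2ca replicates 1 and 2 were above the controls (0.47, adjusted p = 0.310). Of 11 sensors and their signalling partners 4 rose. Ikbke, a kinase that activates IRF3 and is itself switched on by NF-kB, read 10.05, 10.34, 9.43 and 8.81 in IKK2ca livers, against 7.44, 7.24, 7.42 and 7.41 in controls (2.28, adjusted p = 0.00408). The DNA sensing adaptor Sting1 rose by 1.66, the endosomal RNA receptor Tlr7 by 1.62 and the kinase Tbk1 by 0.75 (adjusted p = 0.0064, 0.0314 and 0.0403). The cytosolic RNA sensors Ddx58, Dhx58 and Ifih1 stood at 0.75, 0.75 and 0.54 and did not pass.

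**Figure D5:**
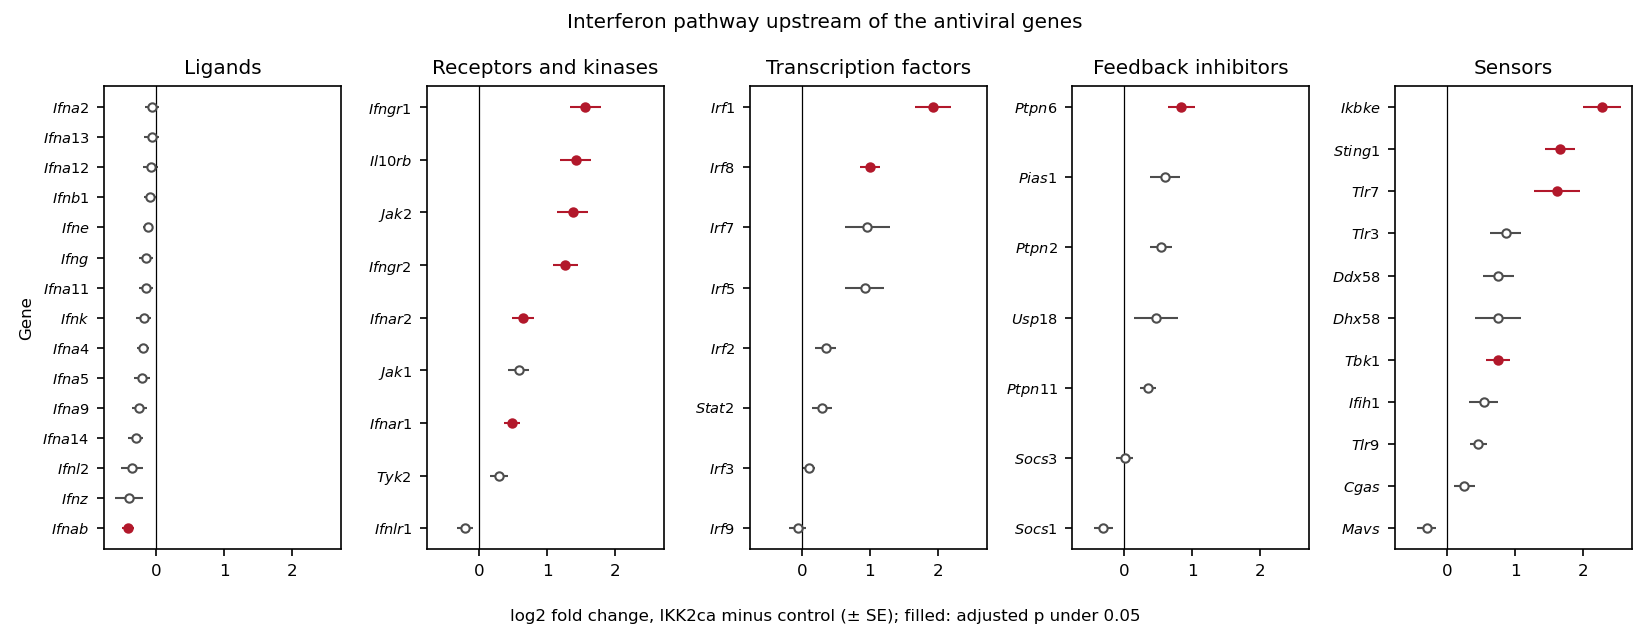
Log2 fold change, IKK2ca minus control, with limma's SE (bars) for 50 genes of the interferon pathway in 5 panels by role; filled points have an adjusted p under 0.05. Ligands lie at or left of 0, while receptors, sensors, Irf1 and Irf8 hold the 13 genes that rose, together with Ptpn6.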

How the data were processed

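The authors deposited log2 values for each probe set of each array. The submitters' processing notes name Affymetrix Expression Console. No source used here gives its version, background correction or normalization, and base 2 was read from the values. Of 35556 probe sets, 21789 carry 1 gene symbol and entered the tests, 1621 carry several and 12146 none. All 35 member symbols were found in RefSeq's gene annotation for GRCm38.p6 by Entrez identifier.

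Limma 3.58.1 in R 4.3.3 fitted group as the only term with empirical Bayes moderation (prior degrees of freedom 3.77). Tests were two-sided, SE is limma's, and log2 fold changes are IKK2ca minus control. No further normalization was applied. The members, lists and promoter motifs were chosen with earlier results of these data known. Genes given in full were the called members, the 8 largest changes, the 4 largest SD over IKK2ca livers and the smallest p of each role group without a call. From each other list came called genes, at most 4, or the one with the smallest p. Further genes were named after their values were seen.

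On simulated data of 19938 genes the fit recovered 48 and 50 of 50 genes moved by 2 and -2 on the log2 scale. It recovered 44 and 43 of 50 moved by 1 and -1. False calls numbered 13. The simulated noise had the same SD in both groups and was drawn independently for each gene and array. In the data the SD was larger over IKK2ca livers in 34 of 35 antiviral genes (median ratio 2.43), and most followed one order of livers. Recovery and false calls under such conditions were not tested. Recovery was not tested separately for genes with an SE as large as that of the antiviral genes. Their median SE was 0.25, against 0.11 over all genes. Alternatives were quantile normalization, centring arrays, dim filters, all probe sets, averaged probe sets, trend and robust moderation, array weights, a replicate block, a minimum fold of 1.2 (limma's treat) and omission of each array in turn.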

Additional observations from a re-analysis of the deposited data

Results flagged for a closer look

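In a group of 4 arrays, 1 array was taken to stand apart when its gap to the nearest other exceeded Dixon's critical share of the group's range, which chance exceeds in about 1 of 20 groups. Of 94 groups examined (35 members and 12 pathway genes, in IKK2ca and control livers), 9 had such an array. Among IKK2ca livers, replicate 2 stood apart for Mx2, at 5.37 against 4.13 to 4.32 in the other IKK2ca livers, and for Ptpn6, at 9.15 against 8.23 to 8.35. Control replicate 2 stood apart for Helz2 at 6.85 (others 7.50 to 7.58), for Ptpn6 at 7.45 (7.71 to 7.73) and for Ikbke at 7.24 (7.41 to 7.44). Control replicate 3 did so for Oas2 at 5.33 (5.01 to 5.03) and for Trim30a at 6.89 (7.44 to 7.46). Control replicate 4 did so for Mx1 at 4.25 (4.08 to 4.10) and for Oas1a at 5.74 (5.99 to 6.02).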

How the results depend on the processing

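The number of antiviral genes called higher was 5 as reported and 5 with quantile normalization, with averaged probe sets, with trend and robust moderation and with array weights, of which 4 of the 5 genes were the same under array weights and all 5 under the others. It was 7 under both dim filters, which drop 30% or 50% of probe sets. Of the 16015 and 11869 genes that these filters left, 6.99% and 9.4% were called higher, against 4.67% of 19938 as reported. The count of antiviral genes was 1 (Ifit2) with arrays centred (3.1% of all genes) and 0 with all deposited probe sets tested (2.13%). It was also 0 under limma's treat with a minimum fold of 1.2 (1.36%). When 1 array was left out it was 0 to 13 (0.963% to 8.21%). With the replicate number as a block it was 2, Ifit2 and Trim30a (3.36%). Wherever the count of members changed, that of all genes moved in the same direction. The labels do not say whether the numbers pair the livers. Deviations from the group mean correlated at 0.28, -0.03, 0.27 and -0.13 for numbers 1 to 4. IKK2ca replicates 1 and 3 correlated best with the control of their own number and replicates 2 and 4 did not, which cannot decide it. No antiviral gene was called lower in any of the 18 settings. For the 5 pathway lists, the 13 genes called higher became 8 with all probe sets and with treat, and 6 to 21 with 1 array left out. The 1 called lower, Ifnab, became 0 with arrays centred, without the dimmest 50%, with all probe sets, with the replicate block and with treat, and 0 to 1 with 1 array left out. Mx2 changed sign, to 0.07 with quantile normalization and 0.06 with arrays centred. The genes that the naming rule picked from the antiviral and pathway lists were refitted under every setting that kept them and did not change sign. For other named genes this was not run. Leaving out an array leaves fewer samples, and testing all probe sets adjusts over more tests. Without IKK2ca replicates 2, 3 and 4 in turn, the count of antiviral genes called rose from 5 to 8, 9 and 13. The causes of the shifts were not tested. Signal over background could not be assessed.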
